A study of Mus musculus with 20 samples.

Results

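Keratinocytes from mice given tamoxifen by injection were compared between Cyp11b1 knockouts and floxed controls. All libraries labelled as systemic were taken, which gave 10 of the 20 libraries of the series, 5 knockout and 5 control. The knockout mice (cKO) carried K14-CreERTam and floxed Cyp11b1 alleles (L2/L2). The controls (ctrl) were littermates with the same L2/L2 alleles and no Cre. Both groups received tamoxifen into the peritoneum on 5 days in a row (100 µl of 10 mg/ml a day), and keratinocytes were sorted from ear and dorsal skin on day 6. The presence of the Cre protein therefore differed between the groups together with the deletion, and tamoxifen itself was common to both. The K14 (Krt14) promoter is active in basal keratinocytes, so the recombinase is driven in that layer. Ages are not given in the sources used here. The other 10 libraries, from mice treated with tamoxifen on the skin (topical; 5 cKO and 5 ctrl), shared the estimate of the spread and served as an outside reference for levels.

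Cyp11b1 encodes the enzyme of the last step of corticosterone synthesis, which runs mainly in the adrenal cortex and has also been described in skin. Corticosterone binds the glucocorticoid receptor, encoded by Nr3c1, which then induces genes such as Tsc22d3, Fkbp5 and Per1 and restrains inflammatory genes. Keratinocytes divide in the basal layer, turn on spinous keratins as they move outward and end as cornified cells built from proteins such as loricrin, filaggrin-like proteins and corneodesmosin.

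Library totals ran from 11.6 to 50.1 M counts, 2 of the 5 cKO and 3 of the 5 control mice had Y-linked transcripts, and mitochondrial genes took 1.87% to 6.42% of counts in the 10 systemic libraries. Keratinocyte markers summed to between 98237 and 122568 CPM, counts scaled to a common library total. Libraries differed widely in reads assigned to predicted genes that resemble major satellite repeats, the tandem repeats found beside centromeres. In the summed CPM of 12 such genes, cKO 2 stood at 37287, cKO 4 at 1.10, cKO 5 at 5.50, cKO 6 at 1.53 and cKO 7 at 2.08. The controls stood at 79.4 (control 1), 11674 (control 3), 1937 (control 4), 2004 (control 5) and 8412 (control 6), and the topical libraries lay between 0.839 and 42.5. Thus 1 cKO library was above every control and the other 4 were below every control, so that in these libraries the level of satellite-like transcripts and the genotype cannot be told apart once cKO 2 is set aside. For this reason the main counts below are given with and without cKO 2.

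**Figure D1:**
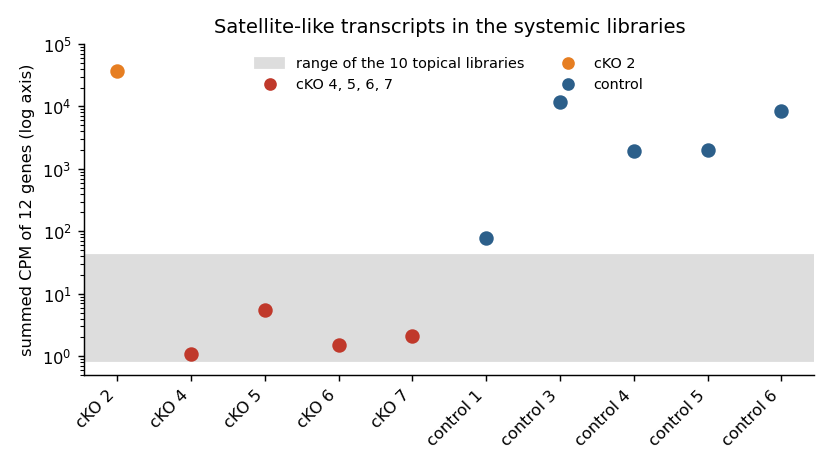
Summed CPM of 12 satellite-like predicted genes in each systemic library (log axis), with the range of the 10 topical libraries shaded. cKO 2 lies at 37287 CPM, the other cKO libraries at 1.10 to 5.50 CPM and the controls at 79.4 to 11674 CPM.

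Gm10800 (ENSMUSG00000075014, chr2:98666547-98667301, GRCm38), the most abundant of the 12, had 344933 counts in cKO 2, between 12 and 106 in the other cKO libraries and between 1144 and 180900 in the controls. The start of its annotated transcript (GENCODE, bases 1 to 300 of 660) shows the repeat that these predicted genes share. The capitals mark the word TTCAGTTTTC, which occurs 7 times in the 660 bases.
Gm10800: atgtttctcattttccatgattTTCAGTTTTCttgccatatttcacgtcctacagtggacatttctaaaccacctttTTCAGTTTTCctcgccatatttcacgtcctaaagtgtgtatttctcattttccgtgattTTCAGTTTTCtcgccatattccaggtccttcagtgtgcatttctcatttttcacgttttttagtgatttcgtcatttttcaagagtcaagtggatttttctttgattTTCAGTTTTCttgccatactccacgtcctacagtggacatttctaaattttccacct
Of the words of 10 bases in the other 11 transcripts, a large part also stands in Gm10800, for example 59.4% for Gm10715 and 66.4% for Gm10717, so reads cannot be assigned to a single one of them with certainty. Since cKO 2 was set aside for its level of these genes, their lower level in the other 4 cKO libraries is a description with no test, and Gm10715 and Gm17535 had 0 counts in cKO 4 to 7. With all 5 cKO libraries, edgeR called none of the 12 (no gene at an unadjusted p under 0.05, median log2 fold change 0.78). DESeq2 called 0 of the 12 with all 5 cKO libraries and limma voom with sample weights called 4 lower.

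Cyp11b1 (ENSMUSG00000075604, chr15:74834125-74841643) was read before any other gene, as a check of the labels. It had 4 counts in cKO 5 and 0 in cKO 2, 4, 6 and 7, and it had 1 count each in control 5 and control 6 and 0 in control 1, 3 and 4. Only cKO 5 had more than 1 count, and its level, the highest, was 0.126 CPM. The mean log2(CPM + 1) differed by 0.0064 (cKO minus control; exact two-sided permutation p 1, 252 arrangements, n = 5 a group). A floor of 3 counts corresponds to 0.0599 to 0.259 CPM here, and all libraries but cKO 5 were under it, so a drop of Cyp11b1 RNA could not have been seen with these totals and the gene cannot check the genotype labels.

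Genotype was then compared across all expressed genes, with a gene called at an adjusted p under 0.05 (edgeR quasi-likelihood test, Benjamini-Hochberg adjustment). With all 5 cKO libraries, 235 of 12424 genes were called (1.89%), of which 169 were higher in cKO (1.36%) and 66 lower (0.531%). Unadjusted p was under 0.05 for 1907 genes (15.3%), 1027 higher (8.27%) and 880 lower (7.08%). Without cKO 2, 787 of 12575 genes were called (6.26%), 440 higher (3.5%) and 347 lower (2.76%), and these included all of the 235. The 347 include the 12 satellite-like genes, for whose level cKO 2 was set aside, and these carry no test. In CPM, all 5 cKO libraries lay above all 5 controls for 127 genes (1.02%) and below them for 114 (0.918%), and without cKO 2 these counts were 503 (4.05%) and 460 (3.7%). The 460 hold satellite-like genes too. A fit of only the 10 systemic libraries called 35 of 11895 genes (0.294%), all higher in cKO, and with cKO 2 left out of that fit 457 of 12053 (3.79%), 273 higher (2.26%) and 184 lower (1.53%). No gene was called by edgeR when satellite-like CPM entered the model as over 50, over 1000 or on the log2 scale, where 263, 639 and 562 genes had an unadjusted p under 0.05. With the covariate over 50 the genotype effect rests on cKO 2 against the 5 controls, since the other 4 cKO libraries have no control on their side. The median log2 fold change over all genes was -0.0045 with cKO 2 and -0.0021 without. In bulk samples of sorted cells, a change in the share of cells in a state and a change of RNA per cell cannot be told apart.

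Each systemic library was then left out in turn, and its place was read on the genes called without it, on a scale of log2(CPM + 1) where 0 is the mean of the controls and 1 the mean of the cKO libraries that remained. cKO 2 lay at a median of 0.080 over 784 genes and was nearer to the controls for 693 of them. These 784 were also tested with all 20 libraries, and they include the 12 satellite-like genes for whose level cKO 2 was set aside. The other cKO libraries lay at 1.07 (cKO 4, 144 genes), 1.26 (cKO 5, 83 genes), 1.25 (cKO 6, 80 genes) and 0.915 (cKO 7, 140 genes). Controls 3 to 6 lay between -0.018 and 0.15. Control 1, the control with the fewest satellite-like transcripts, lay at 0.44 over 320 genes, and 134 of these placed it nearer to cKO. Tested by itself against the 5 controls, cKO 2 differed in 0 of 13579 genes by edgeR (0.0%), and in 300 at an unadjusted p under 0.05 (2.21%). In that fit 1 library stands for a group and its spread is taken from the other groups, so few differences could be called and the count of 0 does not place cKO 2 with the controls. Across all genes, log2 CPM of cKO 2 correlated at 0.968 to 0.982 with the controls and at 0.948 to 0.969 with the other cKO libraries, a description of libraries that also differ in depth. Satellite-like level and genotype cannot be told apart among the libraries other than cKO 2, and cKO 2 is a single library. Their part in the genotype difference was not tested.

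**Figure D2:**
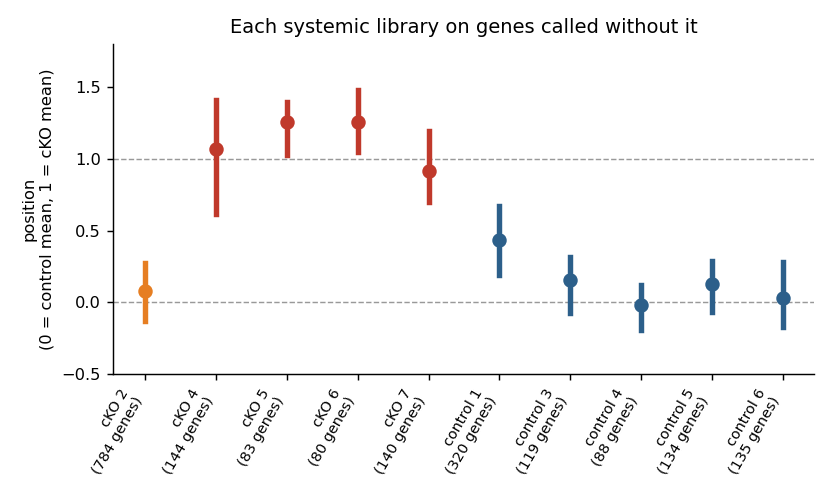
Position of each systemic library on the genes called when it was left out (points are medians, bars run from the lower to the upper quartile; 0 is the control mean and 1 the cKO mean of log2(CPM + 1)). cKO 2 lies at 0.080, among the controls, and the other cKO libraries lie between 0.915 and 1.26.

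Of the 235 called genes, 67 kept their call in each of the 10 fits that left out 1 systemic library, 60 higher and 7 lower. Of these, 28 also passed when the topical libraries were left out of the fit, all of them higher in cKO. Genes named by the rule follow, grouped by what each is known to do.

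The first are genes of lysosome and vesicle traffic. Laptm4a (ENSMUSG00000020585, chr12:8921664-8938742) encodes a membrane protein of late endosomes and lysosomes. Its level was 19.8 CPM in cKO 2 and 118, 84.2, 88.4 and 55.9 CPM in cKO 4, 5, 6 and 7, against 16.2, 13.4, 8.89, 12.9 and 13.1 CPM in control 1, 3, 4, 5 and 6. All 5 cKO libraries were above all controls, but cKO 2 only just. The log2 fold change was 2.51 (SE 0.34, adjusted p 5.94e-04) and without cKO 2 it was 2.75 (SE 0.26, adjusted p 1.62e-06). Rraga (ENSMUSG00000070934, chr4:86575668-86577285) encodes a Rag GTPase that brings mTORC1 to the lysosome. Its level was 10.5 CPM in cKO 2 and 21.2, 18.6, 27.3 and 17.5 CPM in cKO 4 to 7, against 6.72 to 7.92 CPM in the controls, and no control reached cKO 2. The log2 fold change was 1.42 (SE 0.18), and 1.57 without cKO 2. Ykt6 (ENSMUSG00000002741, chr11:5955693-5967780), a SNARE of Golgi traffic, was at 7.93 CPM in cKO 2, at 26.0, 27.4, 29.0 and 22.2 CPM in cKO 4 to 7, and at 4.58 to 7.54 CPM in the controls. For Ykt6 too, cKO 2 was nearer to the controls than to its own group (log2 fold change 1.88, SE 0.24, and 2.09 without cKO 2). Tmed9, a cargo receptor between endoplasmic reticulum and Golgi, rose by 0.85 on the log2 scale (adjusted p 0.00162).

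Few other members of the lists around these genes passed. Of 24 Rag, Ragulator and mTORC1 genes tested, 2 were called, both higher, against 1.36% of all genes: Rraga and Akt1s1, an mTORC1 inhibitor (log2 fold change 1.18, adjusted p 0.0296, and 0.122 with only the systemic libraries). The list's median was -0.06, and 16 of its 24 members had a negative log2 fold change. Of 37 lysosomal genes, 3 were called higher, also against 1.36%, among them Laptm4a and its relative Laptm4b (0.60), and the median was 0.16. Without cKO 2, 6 were called higher and 1 lower, against 3.5% and 2.76% of all genes, the last being Mcoln1, a lysosomal ion channel (-0.63), and Psap, the precursor of the saposins, joined those that rose (1.23). Of 45 SNARE and ER-Golgi genes, 2 were called higher, Ykt6 and Tmed9, against 1.36% of all genes. Without cKO 2, 4 were called higher, against 3.5% (median 0.10 and 0.14).

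Further genes of the cytoskeleton, mitochondria and cell surface rose. Arpc3 (chr5:122391878-122414184), a subunit of the Arp2/3 complex that nucleates branched actin, stood at 7.13 CPM in cKO 2, at 17.5, 20.9, 16.4 and 14.8 CPM in cKO 4 to 7 and at 4.66 to 5.44 CPM in the controls. It was the 1 called gene of 23 in its list, against 1.36% of all genes called higher, and the list's median was 0.17. Got2 (chr8:95864134-95888547), the mitochondrial aspartate aminotransferase, was at 22.7 CPM in cKO 2, barely above control 1 (also 22.7 CPM when rounded), at 52.3 to 94.6 CPM in the other cKO libraries and at 16.01 to 19.6 CPM in the other controls. Its log2 fold change was 1.70 (SE 0.24, adjusted p 9.26e-04). Of 24 citrate cycle and shuttle genes it alone was called, against 1.36% of all genes called higher. Of 67 nuclear subunits of oxidative phosphorylation 0 were called by edgeR, DESeq2 or limma voom (median 0.15, and 1 gene at an unadjusted p under 0.05, against 15.3% of all genes). The nearest were Ndufs4 (0.39) of complex I and Uqcrc2 (0.36) of complex III. Among mitochondrially encoded genes, mt-Nd3 was higher (1.55, adjusted p 0.018) and the other 8 tested did not pass by edgeR. All 9 had a positive log2 fold change, with a median of 0.74. Unadjusted p was under 0.05 for 4, against 8.27% of all genes in that direction, and DESeq2 and limma voom each called 2 higher. Gatd3a (chr10:78162066-78169782) had 1.23 CPM in cKO 2, 5.19 to 7.80 CPM in cKO 4 to 7 and 0.715 to 1.40 CPM in the controls (log2 fold change 2.59, SE 0.32, and 2.83 without cKO 2). Mmp24, a membrane-bound metalloproteinase, rose by 2.12 with cKO 2 (1.94 CPM) above the controls (0.583 to 1.15 CPM), Fut2, a fucosyltransferase, by 1.99, Cldn4, a claudin of tight junctions, by 2.48, and Cyth1, an exchange factor for Arf GTPases, by 1.07. Sh3rf2 rose by 1.12 and Ei24, an endoplasmic reticulum protein and p53 target, by 1.10. Mmp24 overlaps the annotated gene BC029722 on the other strand, and the strand setting of the counting is not given in the sources used here, so their reads may not be separable.

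Csrnp1 and Fosb were higher as well. Csrnp1 (chr9:119971163-119984658) was at 20.9 CPM in cKO 2, inside the control range of 10.7 to 23.4 CPM, and at 132, 135, 120 and 148 CPM in cKO 4 to 7. The log2 fold change was 2.63 (SE 0.39, adjusted p 0.00121) and 2.90 without cKO 2 (adjusted p 2.11e-06), and cKO 2 by itself differed from the controls by 0.21 (SE 0.45). Csrnp1 lies wholly within the annotated span of Cx3cr1 on the same strand. Fosb, an AP-1 transcription factor of the immediate early genes, was at 387 CPM in cKO 2 and at 1158, 937, 1167 and 1371 CPM in cKO 4 to 7, against 294, 497, 206, 291 and 248 CPM in the controls. Only cKO 2 overlapped the controls (log2 fold change 1.71, SE 0.31, adjusted p 0.00521). It was the 1 called gene among 24 immediate early genes, against 1.36% of all genes called higher, and the list's median was 0.0038. With only the systemic libraries Fosb did not pass (adjusted p 0.0611).

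**Figure D3:**
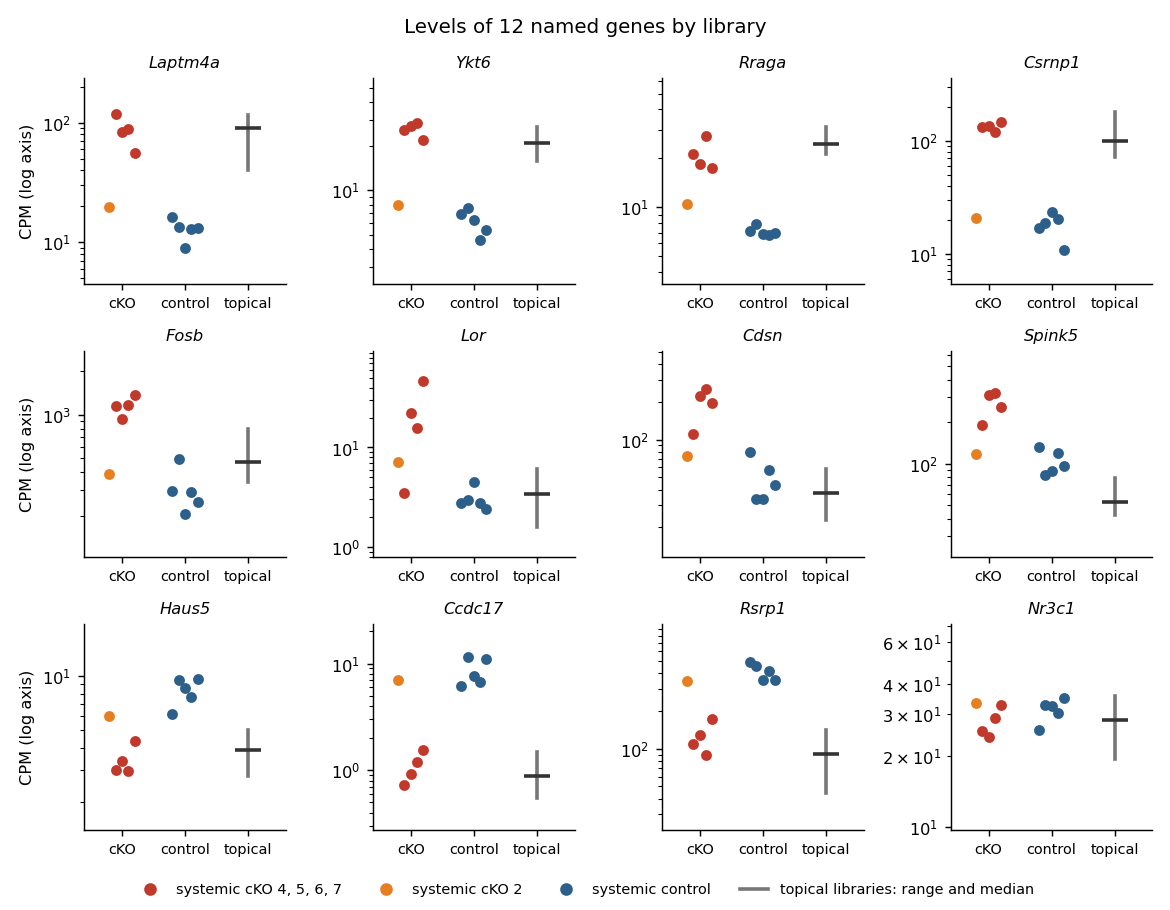
CPM (log axes) of 12 named genes in each systemic cKO and control library, with the range and median of the 10 topical libraries as a bar. cKO 2 lies with or next to the controls in most panels, as for Csrnp1 with 20.9 CPM, and Nr3c1 overlaps between the groups.

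Genes of cornification were next. Of 27 cornified envelope and late differentiation genes tested, 4 were called, all higher (Lor, Cdsn, Spink5 and Flg2), against 1.36% of all genes, and the median log2 fold change was 0.43. None of these 4 kept its call when the topical libraries were left out (adjusted p 0.0893 for Lor, 0.0572 for Cdsn, 0.0942 for Spink5 and 0.125 for Flg2). Without cKO 2, 6 were called higher, with Lce1m (2.49) and Klk5 (1.42) added, against 3.5% of all genes, and the median was 0.55. Lor (ENSMUSG00000043165, chr3:92080271-92083142) encodes loricrin, the main protein of the cornified envelope. Its level was 7.13 CPM in cKO 2, 3.45 CPM in cKO 4, 22.2 CPM in cKO 5, 15.7 CPM in cKO 6 and 46.2 CPM in cKO 7, against 2.74, 2.96, 4.54, 2.79 and 2.41 CPM in the controls. Thus cKO 4 lay inside the control range and the rise was carried by cKO 5, 6 and 7 (log2 fold change 2.62, SE 0.51, adjusted p 0.0107). Flg2 (chr3:93197278-93221391), a filaggrin-like protein, behaved alike, with 5.28 and 3.45 CPM in cKO 2 and 4, 15.9, 19.1 and 25.9 CPM in cKO 5, 6 and 7 and 3.12 to 5.11 CPM in the controls (log2 fold change 1.78, SE 0.43, adjusted p 0.0318). Cdsn (chr17:35552128-35557180), which encodes corneodesmosin of the cell junctions of the cornified layer, had a level of 74.1 CPM in cKO 2, against 111, 222, 251 and 197 CPM in cKO 4 to 7. Control 1 stood at 79.1 CPM and the other controls at 33.7 to 57.5 CPM, so that only cKO 2 overlapped (log2 fold change 1.79, SE 0.34, adjusted p 0.00728). Spink5, an inhibitor of the proteases that shed cornified cells, rose by 1.20, from 82.2 to 131 CPM in controls to 117 CPM in cKO 2 and 189 to 319 CPM in the others. Wfdc21 had a log2 fold change of 2.94 (SE 0.50), with 1.67 and 2.44 CPM in cKO 2 and 4, 9.003 to 13.4 CPM in cKO 5, 6 and 7 and 0.700 to 1.72 CPM in the controls. Other members differed in sign: Sprr1a and Sprr1b, envelope precursors that rise in stressed skin, had log2 fold changes of -0.28 and -1.04 (adjusted p 0.866 and 0.505), and Ivl, which encodes involucrin, had 0.32 (adjusted p 0.61).

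Since these cornification genes were called together, the 250 bases upstream of 3 of them are shown (RefSeq, GRCm38.p6, each read 5′ to 3′ on the gene's strand), with matches to TGANTCA, the AP-1 site, and TATAAA, the TATA box, in capitals where present. Lor is at chr3:92083143-92083392 (minus strand), Flg2 at chr3:93197023-93197272 (plus) and Cdsn at chr17:35551878-35552127 (plus).
Lor: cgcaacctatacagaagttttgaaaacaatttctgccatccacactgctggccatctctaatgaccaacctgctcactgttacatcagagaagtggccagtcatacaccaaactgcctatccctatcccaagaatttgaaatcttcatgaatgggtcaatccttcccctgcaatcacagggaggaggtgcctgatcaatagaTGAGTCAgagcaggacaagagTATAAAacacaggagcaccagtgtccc
Flg2: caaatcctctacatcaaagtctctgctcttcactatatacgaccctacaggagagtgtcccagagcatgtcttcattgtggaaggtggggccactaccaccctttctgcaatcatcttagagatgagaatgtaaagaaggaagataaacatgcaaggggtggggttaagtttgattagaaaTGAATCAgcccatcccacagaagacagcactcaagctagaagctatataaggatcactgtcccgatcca
Cdsn: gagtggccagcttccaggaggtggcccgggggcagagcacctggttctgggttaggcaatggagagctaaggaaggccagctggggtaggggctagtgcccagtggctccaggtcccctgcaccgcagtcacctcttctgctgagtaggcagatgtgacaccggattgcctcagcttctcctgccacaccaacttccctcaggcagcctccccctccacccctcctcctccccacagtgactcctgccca
Lor held both words, Flg2 held TGANTCA and Cdsn neither. Searched on both strands in 250 upstream bases, TGANTCA stood in 13 of 162 promoters of genes called higher (8.02%), in 3 of 59 of genes called lower (5.08%) and in 560 of 12055 of genes tested (4.65%). A full palindromic glucocorticoid response element stood in 1 of 162, 0 of 59 and 35 of 12055. A match is a run of letters and not a bound site, and promoters were found for 131 of the 169 and 49 of the 66 genes.

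Other groups of the epidermis were read as well. Of 16 spinous and early differentiation genes 0 were called by edgeR and 2 by DESeq2. Unadjusted p was under 0.05 for 3, all higher, against 8.27% of all genes. Among them Sbsn, which encodes suprabasin, had 1300.4 CPM in cKO 2, then 3093, 3952, 3739 and 2658 CPM in cKO 4 to 7, with controls between 880 and 2270 CPM, and was called without cKO 2 (1.42, adjusted p 0.0172), as was Skint3 (1.03). Of 15 basal keratinocyte genes 0 were called and 0 had an unadjusted p under 0.05. Lama3, which encodes a laminin chain of the basement membrane, had a log2 fold change of -0.22 (adjusted p 0.616). Of 19 barrier lipid enzymes, Smpd1, the acid sphingomyelinase that makes barrier ceramides, was called higher (0.64, SE 0.15, adjusted p 0.0318), against 1.36% of all genes. With only the systemic libraries Smpd1 did not pass (adjusted p 0.169). Without cKO 2, Elovl1 (0.88) and Cyp4f39 (0.75), enzymes of very long fatty acids, joined it, against 3.5% of all genes. The median of these enzymes was 0.36, and 16 of 19 had a positive log2 fold change.

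Of 11 stress keratins and wound genes, 2 were called, both higher, against 1.36% of all genes, and both encode EGF receptor ligands, Ereg (epiregulin) and Areg (amphiregulin). Ereg was at 8.90, 5.43, 14.9, 23.5 and 32.1 CPM in cKO 2, 4, 5, 6 and 7 and at 6.83, 5.44, 4.15, 2.57 and 5.03 CPM in the controls (log2 fold change 1.81, SE 0.39, adjusted p 0.0184, and 0.0987 with only the systemic libraries). As for Lor and Flg2, cKO 4 lay among the controls. Areg ranged from 6.08 to 16.01 CPM across cKO libraries and from 2.75 to 4.43 CPM across controls, with no overlap (1.66, SE 0.38, adjusted p 0.0236). The stress keratin genes Krt6a and Krt16 had negative log2 fold changes that did not pass, -2.01 (SE 0.91, adjusted p 0.298) and -1.01 (adjusted p 0.483). Control 1 alone held 694 CPM of Krt6a against 22.99 to 140 CPM in the other controls.

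Fewer called genes fell, and none of them was called when the topical libraries were left out. Haus5 (ENSMUSG00000078762, chr7:30653711-30664994) encodes a subunit of augmin, which branches spindle microtubules. Its level was 5.99 CPM in cKO 2 and 3.01, 3.37, 2.97 and 4.38 CPM in cKO 4 to 7, against 6.13, 9.48, 8.56, 7.65 and 9.67 CPM in control 1, 3, 4, 5 and 6. The groups did not overlap, although cKO 2 and control 1 met closely (log2 fold change -1.10, SE 0.19, adjusted p 0.00384). It was the 1 called gene of 20 augmin and centrosome genes (median -0.28), against 0.531% of all genes called lower. Without cKO 2 the gamma-tubulin ring gene Tubgcp3 and the centriole gene Cep152 were called lower too (-0.67 and -1.09), against 2.76% of all genes. Cdca2, which targets a phosphatase to chromatin after mitosis, fell by 1.27 on the log2 scale (4.84 CPM in cKO 2, 1.79 to 3.81 CPM in the other cKO libraries, 5.81 to 8.84 CPM in controls). It was the 1 called gene of 38 replication and mitosis genes, against 0.531% of all genes called lower, and the list's median was -0.05. Ip6k2, an inositol phosphate kinase, fell by 1.12, Zfp512b by 1.11, Echdc2 by 1.29, Zfp692 by 1.24 and Lrrc45, a centrosome linker gene, by 1.11. In Ccdc17, cKO 2 was at 6.96 CPM, within the control range of 6.19 to 11.6 CPM, and cKO 4 to 7 were at 0.733 to 1.56 CPM, so the log2 fold change was -2.05 (SE 0.44, adjusted p 0.0178) with cKO 2 and -3.02 (SE 0.29, adjusted p 1.67e-06) without. Rgs11, a regulator of G protein signalling, was at 8.10 CPM in cKO 2, just under the lowest control, at 1.22 to 3.56 CPM in cKO 4 to 7 and at 8.15 to 13.4 CPM in the controls (-1.79, adjusted p 0.0239).

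Transcripts known to keep introns or to stay in the nucleus were read as a list. Of 25 tested, 2 were called, both lower, against 0.531% of all genes. These were Rsrp1 and Ccnl2, which did not pass with only the systemic libraries (adjusted p 0.134 and 0.199). In the list 22 of 25 had a negative log2 fold change and the median was -0.48. Without cKO 2, 9 were called lower, against 2.76% of all genes, and the median was -0.62, whereas cKO 2 by itself against the controls had a median of -0.04. Rsrp1 (chr4:134923592-134927671) was at 349 CPM in cKO 2, at 109, 129, 89.1 and 173 CPM in cKO 4 to 7 and at 493, 462, 355, 420 and 357 CPM in the controls. cKO 2 was just under the lowest control and far above its own group (log2 fold change -1.30, SE 0.31, adjusted p 0.0296, and -1.74 without cKO 2). Ccnl2, a cyclin of splicing bodies, fell by 0.98, and Pnisr and Tia1 passed without cKO 2 (-1.77 and -1.09). Of 39 splicing factors, Srsf2 and Srsf7 were called lower (-1.34 and -0.69), against 0.531% of all genes. U2af1, which reads the 3′ splice site, and Ptbp1, a repressor of exons, were called higher (1.51 and 1.16), against 1.36%. The median of the list was -0.01. Srsf2 had 248 CPM in cKO 2, 46.4 to 162 CPM in cKO 4 to 7 and 199.8 to 460 CPM in controls, so cKO 2 lay among the controls. Mettl23 fell as well (-1.11), but Srsf2 lies wholly inside its span on the other strand, so that these are not separate observations if the counting ignored strand. Arglu1, a splicing cofactor, fell by 1.30, with overlapping groups.

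Targets and partners of glucocorticoid signalling did not pass. Of 29 glucocorticoid-induced genes, 0 were called by edgeR, 1 was called by DESeq2 and 0 by limma voom, and the median was -0.03. Unadjusted p was under 0.05 for 4, against 15.3% of all genes. Tsc22d3, a mediator of the response to glucocorticoids, was at 77.7, 168, 200, 157 and 122 CPM in cKO 2, 4, 5, 6 and 7 and at 119, 51.8, 106, 112 and 74.2 CPM in the controls. The other 4 cKO libraries were above every control and cKO 2 was among the controls (log2 fold change 0.65, SE 0.27, adjusted p 0.237, and 0.81 with adjusted p 0.0652 without cKO 2). Fkbp5, a cochaperone of the receptor, was at 0.440 CPM in cKO 2, 1.54 to 4.17 CPM in the other cKO libraries and 0.638 to 1.87 CPM in controls (0.64, SE 0.43, adjusted p 0.524). Per1 ranged from 28.1 to 76.3 CPM across cKO libraries and from 30.6 to 70.9 CPM across controls (0.03, SE 0.29), and its sign turned without cKO 2 (-0.14). Rgs2, a regulator of G protein signalling, had 0.90 (adjusted p 0.161). Ddit4, an mTORC1 inhibitor, passed without cKO 2 (1.34, adjusted p 0.029). The receptor gene Nr3c1 ranged from 24.0 to 33.4 CPM across cKO libraries and from 25.6 to 35.0 CPM across controls (-0.11, SE 0.16, adjusted p 0.808). Of 7 genes of steroid synthesis, activation and receptors tested, 0 were called (1 at an unadjusted p under 0.05, against 15.3% of all genes, and 0 by DESeq2 or limma voom). The nearest was Srd5a1, a steroid reductase (0.43, adjusted p 0.238). Hsd3b6, which acts earlier in the pathway, was at 0.176 CPM in cKO 2, 1.93 to 4.06 CPM in the other cKO libraries and 0.329 to 2.79 CPM in controls (0.75, SE 0.53).

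Inflammation and antigen presentation lists held no call with all 5 cKO libraries. Of 18 keratinocyte inflammation genes, 0 were called by edgeR and 1 by DESeq2, with a median of -0.02, and the chemokine gene Cxcl10 was nearest (1.20, SE 0.37, adjusted p 0.0998). It was highest in cKO 2 (14.6 CPM) and cKO 7 (14.3 CPM), and Ccl2, another chemokine gene, had -0.85 (adjusted p 0.38). Of 17 interferon-stimulated genes, 0 were called by edgeR and 1 by DESeq2, and the median was 0.40. Unadjusted p was under 0.05 for 4, all higher, against 8.27% of all genes. Gbp2, an interferon-induced GTPase, was highest in cKO 2 (9.95 CPM) and had an adjusted p of 0.0676. Of 25 MHC and antigen processing genes, 0 were called by edgeR and 3 by DESeq2, and the median was 0.45. Unadjusted p was under 0.05 for 8, all higher, against 8.27% of all genes. H2-Eb1, an MHC class II chain, ranged from 2.57 to 4.32 CPM across cKO libraries, with cKO 2 the highest, and from 1.07 to 2.24 CPM across controls, with no overlap (0.997, SE 0.31, adjusted p 0.103). Markers of epidermal immune cells summed to 19.6 to 39.4 CPM in cKO and 8.70 to 33.8 CPM in controls, and their part in these levels was not tested. Pdia3, a chaperone of MHC class I, passed without cKO 2 (0.92, adjusted p 0.0292).

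Stress and metabolic lists held few calls. Of 16 NRF2 targets, Me1, the cytosolic malic enzyme, was called (0.95, adjusted p 0.0218), and of 18 p53 targets Ei24 and Zmat3 were (1.10 and 0.79). All were higher, against 1.36% of all genes. Me1 and Zmat3 did not pass with only the systemic libraries (adjusted p 0.136 and 0.0678). Zmat3 did not overlap between the groups, since cKO libraries ranged from 13.2 to 20.3 CPM and controls from 7.43 to 11.8 CPM. Among 19 ATF4 targets Slc1a5, a glutamine transporter, was called lower, against 0.531% of all genes. It fell by 0.92 (2.42 to 4.05 CPM in cKO, 4.15 to 6.93 CPM in controls) and did not pass with only the systemic libraries (adjusted p 0.113). Of 23 cholesterol synthesis genes, Fdps was called higher (1.37, adjusted p 0.0396), against 1.36% of all genes, but not with only the systemic libraries (adjusted p 0.189). Fdps makes farnesyl diphosphate and was at 68.0 CPM in cKO 2, 211 to 466 CPM in cKO 4 to 7 and 62.4 to 153 CPM in controls. Of 61 cytosolic ribosomal protein genes, 0 were called by edgeR, 7 by DESeq2 and 1 by limma voom, although 59 had a positive log2 fold change and the median was 0.44. Unadjusted p was under 0.05 for 22 of them, all higher, against 8.27% of all genes. Rpsa (0.93, adjusted p 0.0517) and Rps12 (0.97, adjusted p 0.0639) were nearest, and 3 passed without cKO 2. In the other lists, the genes nearest to a call also had adjusted p over 0.05 with all 5 cKO libraries: for heat shock Dnajb4 (0.61) and Dnaja1 (-0.44), for the clock Per3 (-1.22) and Bhlhe41 (-1.22), for hypoxia Car9 (-1.61) and Bnip3 (-0.67), for zinc Slc30a1 (0.92) and Slc30a4 (0.51), and for the proteasome Psmb7 (0.53) and Psmd13 (0.45). Without cKO 2, Per3 (-1.45, adjusted p 0.00958) and Dnajb4 (0.68, adjusted p 0.0363) were called. Markers of other cells were not called by edgeR in any of the 8 lists besides keratinocytes with all 5 cKO libraries, and the fibroblast sum reached 45.4 CPM in control 6. DESeq2 and limma voom each called the 1 erythroid gene tested higher (1.10 by edgeR). Unadjusted p was under 0.05 for that gene and for 2 of 3 immune markers, all higher, against 8.27% of all genes. The same held for 2 of 4 melanocyte and 1 of 7 hair follicle markers, all lower, against 7.08%. Without cKO 2 the hemoglobin gene Hba-a1 was called higher (1.25, adjusted p 0.019), with erythroid sums of 5.69 to 7.25 CPM in cKO 4 to 7 and 1.23 to 6.34 CPM in controls. The part of these cells in other results was not tested.

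**Figure D4:**
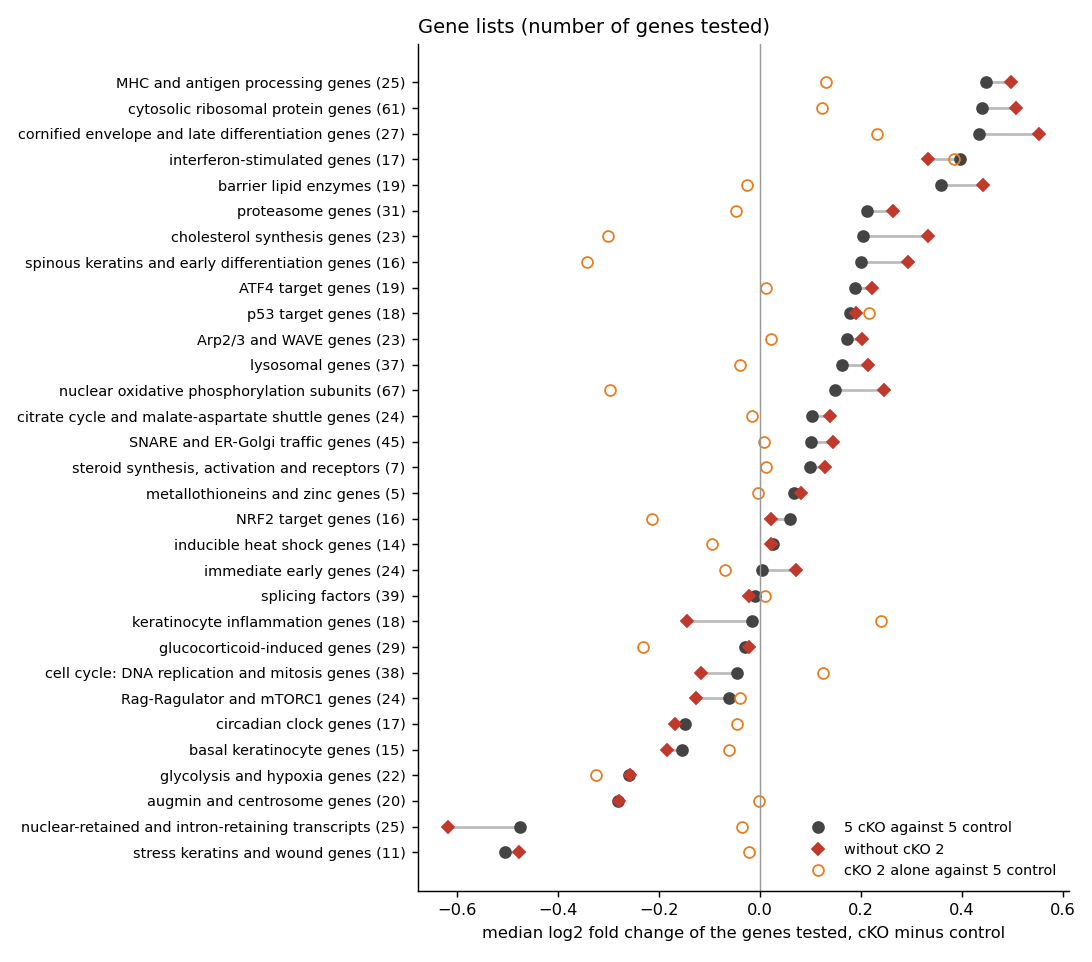
Median log2 fold change (cKO minus control) of the tested genes of each list, with all 5 cKO libraries (filled circles), without cKO 2 (diamonds) and for cKO 2 by itself (open circles); the number of genes tested is in parentheses. Nuclear-retained transcripts lie at -0.48 and -0.62 and cornified envelope genes at 0.43 and 0.55, and for cKO 2 by itself the former lie at -0.04.

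In each of the 12 genes named for passing only without cKO 2, the cKO 2 level lay within or beyond the control range. Of those with the smallest p, Prmt1, an arginine methyltransferase, was at 4.84 CPM in cKO 2, 13.6 to 18.5 CPM in cKO 4 to 7 and 5.35 to 9.10 CPM in controls (log2 fold change 1.25 without cKO 2, 1.04 with it). Pepd, a dipeptidase that frees proline, was at 30.8 CPM in cKO 2, 54.6 to 66.5 CPM in cKO 4 to 7 and 23.3 to 44.9 CPM in controls. Spryd3, Tmppe, Fndc9 and Csrnp2 rose in the same way, by 0.86, 0.80, 1.11 and 1.34 without cKO 2. Among those that fell, Metap1d, a mitochondrial methionine aminopeptidase, was at 21.8 CPM in cKO 2, 3.55 to 10.1 CPM in cKO 4 to 7 and 15.6 to 33.7 CPM in controls (-2.03). Dennd6b, Nrbp2, Dtx3, Pnisr and Ttc14 fell by 2.16, 1.27, 1.87, 1.77 and 1.30. Over the genes called with all 5 cKO libraries, cKO 2 lay within or beyond the control range in 103 of the 169 that were higher (60.9%) and 33 of the 66 that were lower (50%). The matching counts for cKO 4 to 7 were between 0 and 5 and between 0 and 4. These shares describe genes chosen with these libraries and carry no test.

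The topical libraries, which took no part in the contrast, placed the called genes in different ways. On a scale where 0 is the mean of the systemic controls and 1 the mean of systemic cKO 4 to 7, the median of the 10 topical libraries lay nearer to cKO for 63 of the 66 genes called lower and for 103 of the 169 called higher. For the remaining 66 higher genes it lay nearer to the controls. Without cKO 2, the counts were 300 of 334 lower and 253 of 438 higher genes nearer to cKO, leaving out satellite-like genes and genes not tested with all 20 libraries. In Laptm4a, for example, the topical libraries held 40.2 to 116 CPM, above every systemic control and cKO 2. The topical median was also nearer to cKO for Ykt6 (15.8 to 27.0 CPM), Rraga (21.3 to 31.0 CPM), Ccdc17 (0.546 to 1.499 CPM) and Rsrp1 (44.5 to 140 CPM). For the 4 called cornification genes it was nearer to the controls: topical libraries held 1.57 to 6.05 CPM of Lor, 23.1 to 58.6 CPM of Cdsn, 42.4 to 78.8 CPM of Spink5 and 0.615 to 2.59 CPM of Flg2. For Spink5 and Flg2 this range lay under every systemic control, and for Lor and Cdsn it overlapped theirs. The topical median was nearer to the controls for Ereg (1.52 to 5.05 CPM) and Wfdc21 (0.0871 to 0.980 CPM) as well. The genotype effect itself differed between routes in 31 of 12424 genes (0.25%; edgeR interaction term, adjusted p under 0.05), 23 with a higher value after injection (0.185%) and 8 with a lower one (0.0644%). The route of tamoxifen and the handling of each set of mice cannot be told apart in this reference, and the split was looked at after the values were seen.

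**Figure D5:**
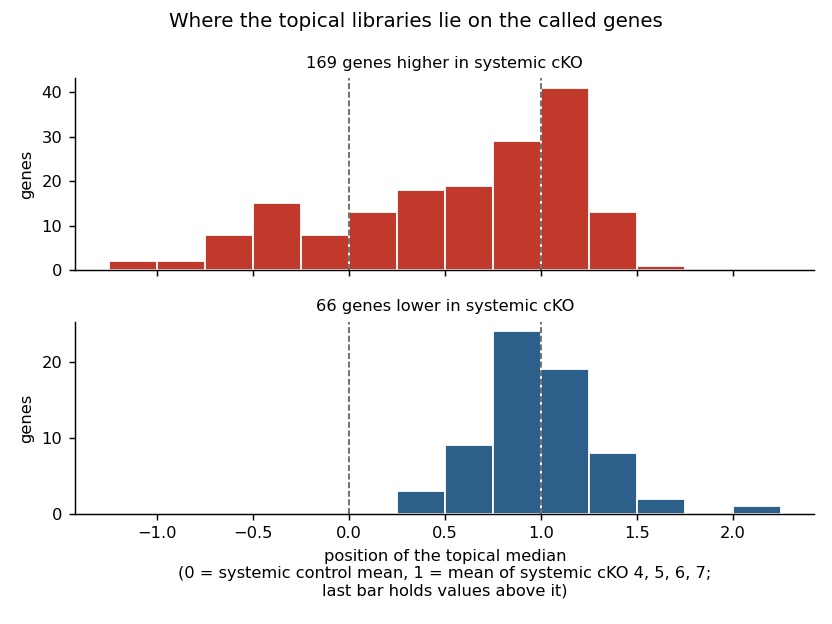
Number of called genes by the position of the topical median between the systemic control mean (0) and the mean of systemic cKO 4 to 7 (1), for 169 genes higher and 66 lower in systemic cKO. Of the lower genes 63 lie nearer to 1, and the higher genes spread over both sides, with 103 nearer to 1.

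Sequence and size of the called genes were also read. Genes called higher had a median GC content of 52.4% and genes called lower 54.1%, against 49.7% of all tested. Their annotated transcripts had median lengths of 2931 and 3012 bases against 3318, and the median number of annotated transcripts was 4 for genes called higher and 8 for genes called lower, against 5. Median levels were 17.2 CPM for higher, 12.1 CPM for lower and 9.70 CPM for all genes, and called genes had a median absolute log2 fold change of 1.10 (higher) and 0.82 (lower), which depends on the power to call. With an offset for the trend with GC content in each library, 328 genes were called.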

How the data were processed

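RNA of sorted keratinocytes was sequenced from SmartSeq II libraries, per the labels' protocols. The authors deposited 1 table of raw counts, whole-number reads per gene without normalization, for 25719 Ensembl identifiers and 20 mice. STAR, featureCounts and GRCm38 (mm10) are named per the submitters' processing notes; the annotation, strand setting and further options are not given in the sources used here. GENCODE vM21 of the same build gave coordinates and GC content, and 25665 identifiers were found there. In it, Haus5 (in Gm21982), Fdps (Gm43738), Per3 (Camta1), Sbsn (Tmem147os) and Tmppe (Glb1) lie mostly or wholly within another gene on the same strand. Srd5a1 (in Nsun2), Cxcl10 (Art3), Ccl2 (Gm17268) and Fndc9 (Cyfip2) lie within one on the other strand. Reads of these genes, among others, may not be separable.

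Counts were fitted with edgeR 4.0.16 (R 4.3.3): TMM, filterByExpr (minimum count 10, minimum total count 15), robust quasi-likelihood, 1 coefficient per group over all 20 libraries, two-sided F tests, Benjamini-Hochberg over all genes tested, threshold 0.05. Levels are CPM with TMM factors, but sums of lists and Cyp11b1 use library totals alone. The pseudocount for log2(CPM + 1) values was 1. The pipeline was tested on simulated data. No molecular identifiers are described, so the depth of 11.6 to 50.1 M counts limits only counting error. Each group has 5 mice per the series' design text, so p-values measure the spread between mice.

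Named genes were: called genes whose log2 fold change was 1 or more in size, by p (12 each way) and by size (6), called genes that kept their call in every leave-one-out fit and in the systemic fit (8), Cyp11b1, Nr3c1, Tsc22d3, Fkbp5 and Per1, called members of the lists (4 each way) or the 2 nearest, the satellite-like genes, and those called only without cKO 2 (6 each way). Predicted genes were passed over, and some genes that the rule names are not reported here. Further list members and Cx3cr1, BC029722, Krt6a and Krt16 were chosen after their values were seen. The members, the lists and the covariates were chosen with earlier results of these data known. Alternatives were DESeq2 1.42.0 (size factors and Wald test), limma 3.58.1 voom with sample weights, filters, non-robust dispersion, only the systemic libraries, replicate number as a blocking term, covariates, a GC offset, and leaving out each library. The analysis of cKO 2 by itself, the interaction with route, the fits without cKO 2 that left out a further library and the place of the topical libraries were added after seeing the data.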

Additional observations from a re-analysis of the deposited data

Results flagged for a closer look

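Some libraries stood far from the other 4 of their group, by Dixon's test at the 95% level, which chance meets in about 1 in 20 groups. cKO 2 did so for the summed satellite-like transcripts (37287 CPM), high for Echdc2 (21.9 CPM), Ccdc17 (6.96), Zfp692 (18.0), Dennd6b (6.69), Dtx3 (5.64) and Ttc14 (26.0), and low for Csrnp1 (20.9) and Skint3 (19.3). Dennd6b, Dtx3 and Ttc14 were named for passing only without cKO 2, so their flags follow in part from that choice. Many named genes were read in each group, so some flags would arise by chance. In the controls, control 1 was high for Wfdc21 (1.72 CPM) and Sbsn (2270), control 3 for Dnaja1 (60.3) and U2af1 (13.2), and control 4 for Lor (4.54) and Cxcl10 (7.31). The total of control 6 was high (27.1 M counts) and the mitochondrial share of cKO 4 low (2.45%).

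For some genes the genotype effect after injection differed from that after topical tamoxifen, by an interaction term (edgeR, adjusted p 0.0115 to 0.042). The difference of log2 fold changes, systemic minus topical, was 2.49 for Gatd3a, 1.502 for Rraga, 2.05 for Ykt6, 2.78 for Laptm4a, 2.07 for Mmp24, 1.89 for Arpc3, 1.61 for Got2, 2.62 for Csrnp1, 2.23 for Fut2 and 1.37 for Sh3rf2, and it was -1.44 for Haus5 and -1.45 for Slc1a5. In all, 31 genes passed this test (0.25%).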

How the results depend on the processing

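The count of 235 called genes became 0 under each form of the satellite-like covariate, 1320 with the mitochondrial share and 563 with DESeq2's Wald test. It was 35 with only the systemic libraries, 457 with those and without cKO 2, and 81 (without cKO 6) to 787 (without cKO 2) when 1 library was left out. The other such fits gave 146 (cKO 4), 84 (cKO 5), 142 (cKO 7), 321 (control 1), 119 (control 3), 88 (control 4) and 135 (control 5, and control 6). Set alone against the controls, cKO 2 gave 0. The 787 genes without cKO 2 became 457 with only the systemic libraries and 2023 with the mitochondrial share, and 433 (without cKO 5) to 1081 (without control 1) when 1 more library was left out; without control 3 there were 492. The causes were not tested, apart from fewer libraries in the systemic fits. Of 46 called genes named, 46 kept their call without cKO 2, 17 with only the systemic libraries and 0 under a satellite-like covariate. Scaling by DESeq2's size factors kept all 46.

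Adding a replicate block gave 288 calls and 43 of the 46 kept their call. Deviations of same-numbered mice correlated at -0.0064 (number 4), 0.24 (number 5) and 0.26 (number 6), so not every pair exceeded 0.1 and the samples share only a number.

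Signs turned as follows. Cyp11b1 was -0.028 without cKO 5 and -0.000504 without control 1, 3 or 4 (range over libraries left out -0.028 to 0.0211). With satellite-like CPM over 50, which leaves cKO 2 against the controls, log2 fold changes were 0.099 (Nr3c1), -0.25 (Tsc22d3), -1.63 (Fkbp5), -0.0045 (Ddit4), -3.08 (Hsd3b6), 0.17 (Lama3), -0.19 (Skint3), -0.037 (Smpd1), -0.058 (Akt1s1), -0.67 (Fdps), -0.046 (Slc30a1), -0.48 (Prmt1), -0.20 (Spryd3), -0.27 (Tmppe), -0.37 (Fndc9), -0.18 (Pepd), -0.45 (Csrnp2), 0.060 (Dennd6b), 0.10 (Nrbp2), 0.14 (Dtx3) and 0.27 (Ttc14). Over 1000 the value was 0.074 for Nr3c1, and on the log2 scale 0.11 (Nr3c1), -0.034 (Fkbp5) and -0.51 (Hsd3b6). Per1 was -0.15 (systemic libraries without cKO 2), -0.10 (block), -0.050 (sex), -0.14 (without cKO 2), -0.00519 (without cKO 7), -0.11 (without control 3) and -0.054 (without control 6), in a range up to 0.193 (without cKO 4). Depth limits Cyp11b1, at 0 to 4 counts.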

Other observations

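Control 1 and cKO 4 had close mitochondrial shares (2.44% and 2.45%), above only control 4 (1.87%) among the 10 systemic libraries, and both came from mice with Y-linked transcripts. Among genes chosen after their values were seen, cKO 4 was the cKO library nearest to the controls for Lor (3.45 CPM), Flg2 (3.45 CPM) and Ereg (5.43 CPM), and cKO 2 was nearest for Cdsn, Spink5 and Areg. Control 1 was high in Sbsn (2270 CPM) and Cdsn (79.1 CPM).

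The summed level of sebaceous gland genes was 262 CPM in cKO 2 and 309 CPM in control 4, against 698 to 3054 CPM in the other 8 systemic libraries. Hair follicle markers ran from 831 to 2284 CPM in cKO and from 828 to 3498 CPM in controls, with no call among the 7 tested by edgeR (1 at an unadjusted p under 0.05).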
